A study of Sus scrofa with 96 samples.

Results

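Jejunum mucosa was set against liver, kidney cortex and longissimus dorsi muscle from the same study in pigs (Sus scrofa), with both diets pooled. Each count file was given to the sample whose title, a plate well and number, stands in the file's name, and libraries under 1000000 counts were left out. That left 19 of 24 jejunum libraries, beside 24 of kidney, 23 of liver and 24 of muscle, so jejunum made up 19 of 90 libraries used and 96 deposited. The study fed 24 pigs a semi-purified diet with 8% D-xylose, a pentose sugar, or the same diet free of xylose, with 12 pigs on each, and sampled 4 tissues. The jejunum libraries used were 10 on xylose and 9 on the xylose-free control diet, and those of the other 3 tissues were 35 on xylose and 36 on control. The labels used here name no breed, sex or age. Muscle RNA was purified with a kit for fibrous tissue and the RNA of the other tissues with a standard column kit, so kit and tissue cannot be told apart for muscle. Libraries were made with QuantSeq, a method that reads the 3' end of polyadenylated RNA and so gives about the same number of reads per transcript whatever its length.

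The assignment by title differs from the repository's own record for 90 of 96 files, and all 24 jejunum libraries are recorded there as liver. The tissue was therefore checked against 5 enterocyte markers chosen for this purpose: SI, FABP2, APOA4, ANPEP and SLC5A1. Together they took 0.567% to 1.71% of counts in the jejunum libraries, against at most 0.112% in a kidney library, 0.0291% in a liver library and 0.00694% in a muscle library. Every jejunum library therefore stood above every library of the other tissues, and the label was kept. Jejunum libraries held 1044588 to 4925124 counts (median 2006321), against 1500278 to 6942566 (median 3906650) in the other tissues. The labels do not tie samples to animals, and tissues of an animal are not independent, so the p-values below treat related libraries as separate.

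The jejunal mucosa is a single-layered epithelium over a thin connective tissue core. Its enterocytes carry a brush border of microvilli with disaccharidases and peptidases that finish digestion, take up sugars, peptides, lipids, vitamins and minerals, and package dietary fat into chylomicrons. Goblet, enteroendocrine and Paneth cells and dividing crypt cells share the epithelium, which also holds many lymphocytes, and it exports immunoglobulin A. Kidney proximal tubules have a brush border of their own, and hepatocytes also make lipoproteins, so those tissues share parts of the jejunal programme.

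SI (ENSSSCG00000011735), sucrase-isomaltase of the brush border, stood at 151, 371 and 1124 CPM in jejunum, where a set of 3 values is the lowest, the median and the highest library of a tissue and CPM is the count scaled to 1000000 per library after TMM scaling, which allows for a few abundant genes taking up reads. It stood at 0, 1.16 and 5.55 CPM in kidney, 0.288, 2.35 and 3.8 CPM in liver and 0.511, 1.82 and 8.15 CPM in muscle. The log2 fold change of jejunum against the mean of the other tissues was 7.83 ± 0.15 (SE, edgeR quasi-likelihood test, adjusted p = 2.31e-67). FABP2 (ENSSSCG00000037272), the intestinal fatty acid binding protein, stood at 914, 3310 and 5581 CPM in jejunum, against a highest library of 26 CPM in kidney, 20.6 CPM in liver and 48 CPM in muscle (log2 fold change 8.02 ± 0.14, adjusted p = 1.1e-70). For SI and FABP2, each of 19 jejunum libraries lay above all 71 others. SLC5A1 (ENSSSCG00000010036), the sodium-coupled glucose transporter SGLT1, stood at 757, 1521 and 3191 CPM in jejunum, against 6.68, 17.8 and 47.5 CPM in kidney, 5.64, 10.1 and 22.7 CPM in liver and 4.92, 9.64 and 24.5 CPM in muscle. ANPEP (ENSSSCG00000001849), aminopeptidase N, stood at 1279, 3910 and 10154 CPM in jejunum, against 140, 386 and 693 CPM in kidney, 85.4, 176 and 334 CPM in liver and 19.6, 28.6 and 47.3 CPM in muscle. Neither gene's jejunum libraries overlapped with those of another tissue. Of the 5 markers, 2 were tested only because of their level in jejunum, and all 5 had served to keep the label. The p-values of the markers are therefore a description.

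APOA4 (ENSSSCG00000040689), an apolipoprotein of chylomicrons, was the exception among these markers. It stood at 6.07, 33.2 and 82.5 CPM in jejunum, against 0, 0.26 and 1.44 CPM in kidney, 1.69, 12.7 and 88.6 CPM in liver and 0, 0.439 and 1.68 CPM in muscle. Jejunum and liver thus overlapped widely, with a difference of 0.90 on the log2 scale (adjusted p = 0.00502), and the call against liver was lost in the lane 8 libraries alone. Against the mean of the other tissues, the log2 fold changes in the lane 7 and the lane 8 libraries taken separately were 7.66 and 7.91 for SI, 7.98 and 7.99 for FABP2, 4.86 and 4.12 for APOA4, 4.89 and 5.24 for ANPEP, and 6.83 and 7.01 for SLC5A1.

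**Figure D1:**
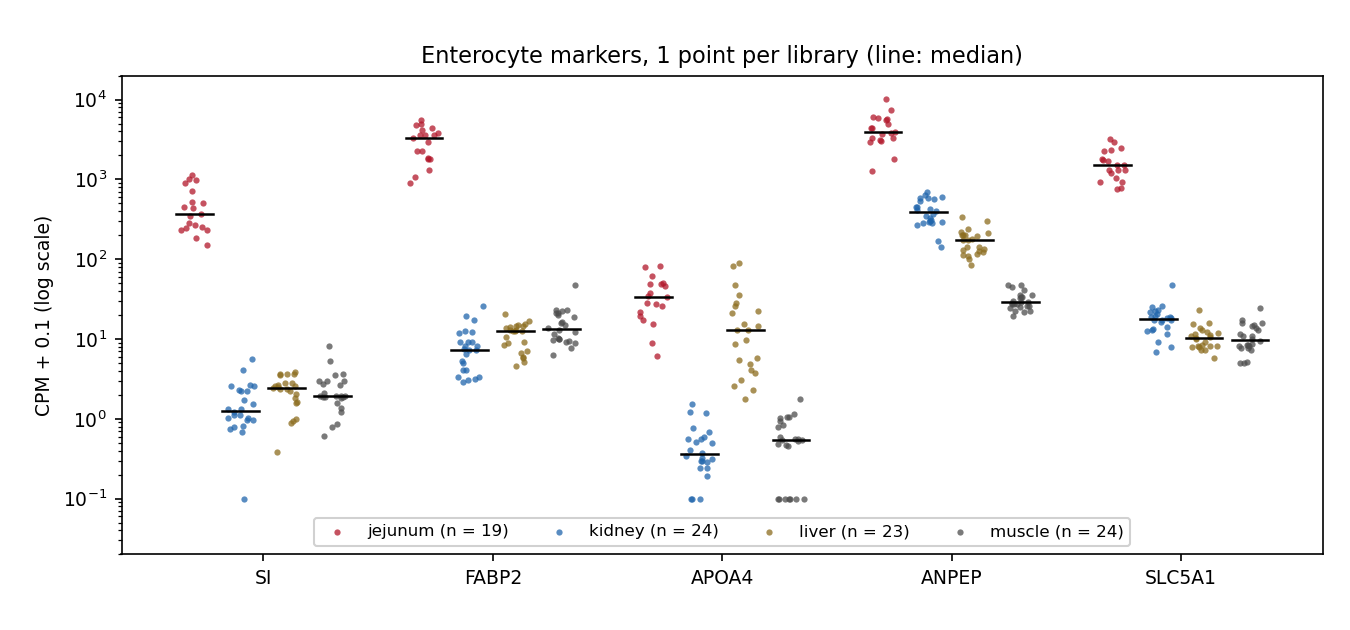
CPM + 0.1 on a log axis for the 5 enterocyte markers, with 1 point per library and a line at each tissue's median, for jejunum (19 libraries), kidney (24), liver (23) and muscle (24). SI, FABP2, ANPEP and SLC5A1 separate jejunum from every other library, whereas APOA4 in jejunum (6.07 to 82.5 CPM) overlaps liver (1.69 to 88.6 CPM).

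Of 11511 genes tested, 4640 (40.3%) were higher and 4673 (40.6%) lower in jejunum than the mean of kidney, liver and muscle. Scaled by library totals alone, with no TMM factor, the genes higher in jejunum were 65.8% of those called in place of 49.8%, and the median log2 fold change of all genes was 0.472 in place of -0.0123. A mean over tissues can be moved by a single tissue, so the groups below are described by a stricter call, a gene higher or lower in jejunum than in each of the other 3 tissues at an adjusted p under 0.05. By that call 2607 genes (22.6%) were higher and 2122 (18.4%) lower, of which 1421 (12.3%) and 1127 (9.79%) differed at least 2-fold from each tissue. Against single tissues, 37.5% of genes were higher and 37.4% lower than in kidney, 40.9% and 35.7% than in liver, and 43.4% and 38.3% than in muscle. In the lane 7 libraries alone 2059 were higher and 1868 lower, and in the lane 8 libraries alone 2224 and 1794. Kidney had the next-highest level for 1202 (46.1%) of the 2607 genes, liver for 876 (33.6%) and muscle for 529 (20.3%). The shares 22.6% and 18.4% are the background beside which each list's count is given. Genes tested only because of their level in jejunum are counted in it: 738 of the 11511 did not pass the expression filter once the jejunum libraries were left out, and 490 of them were higher in jejunum than in each tissue. Of the 10773 that passed without jejunum, 2117 (19.7%) were higher. In bulk tissue, fewer cells of a type and less RNA per cell cannot be told apart.

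The 15 named genes that stood furthest above their nearest tissue were SI, FABP2, AQP10, LGALS2, LGALS4, SLC2A7, ENPP7, RBP2, MYO1A, SMIM31, OLFM4, GIP, SPINK4, SPINK1 and BEST4. They comprise enterocyte genes such as the water and glycerol channel AQP10, the sphingomyelinase ENPP7 and the brush border myosin MYO1A, the crypt gene OLFM4, the incretin hormone gene GIP, and BEST4, an anion channel that marks a small class of intestinal cells. In all 15, no jejunum library overlapped with another tissue, which a choice by fold favours. The share of all tested genes without overlap was not counted. Their means in jejunum ran from 60.0 to 6106 CPM, and their smallest pairwise fold from 179 to 271. Since the rule chose these genes for that fold, the folds are a description.

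The levels of these 15 genes ranged widely. Their folds lay in a narrow range, which follows in part from choosing the largest folds. The mean in kidney was 0.259% to 0.501% (median 0.323%) of the jejunum mean across the 15 genes, in liver 0.275% to 0.486% (median 0.403%) and in muscle 0.358% to 0.548% (median 0.513%). SPINK1, a trypsin inhibitor, stood at 1595, 5733 and 14811 CPM in jejunum, against 9.73, 15.3 and 45.5 CPM in kidney, 11.8, 25.4 and 43 CPM in liver and 20.3, 29.4 and 62.5 CPM in muscle. GIP stood at 21.4, 52.1 and 129 CPM in jejunum, against a median of 0.236 CPM in kidney and 0 CPM in liver and muscle. Of 1088 genes higher in jejunum than in each tissue and at 50 CPM or more there, 49 had a smallest fold of at least 100, 5 of at least 200 and 0 of at least 300. The largest smallest fold was 271, and the order of the 15 genes carries no ranking. Markers of the other tissues were in turn present at low levels in jejunum. There, 13 hepatocyte markers stood at 0.605% to 1.88% of their liver mean (median 0.772%). For 10 skeletal muscle markers the range was 0.412% to 1.17% of their muscle mean (median 0.479%). Albumin (ALB) stood at 562, 788 and 2980 CPM in jejunum, against 264, 480 and 1513 CPM in kidney, 14354, 163512 and 235519 CPM in liver and 608, 889 and 3498 CPM in muscle. Of 11 kidney tubule markers, 8 stood in jejunum at 0.818% to 1.98% of their kidney mean, and CALB1, SLC5A2 and AQP3 at 3.98%, 8.6% and 29.7%. What part of these low levels is transcription in the tissue itself was not tested.

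**Figure D2:**
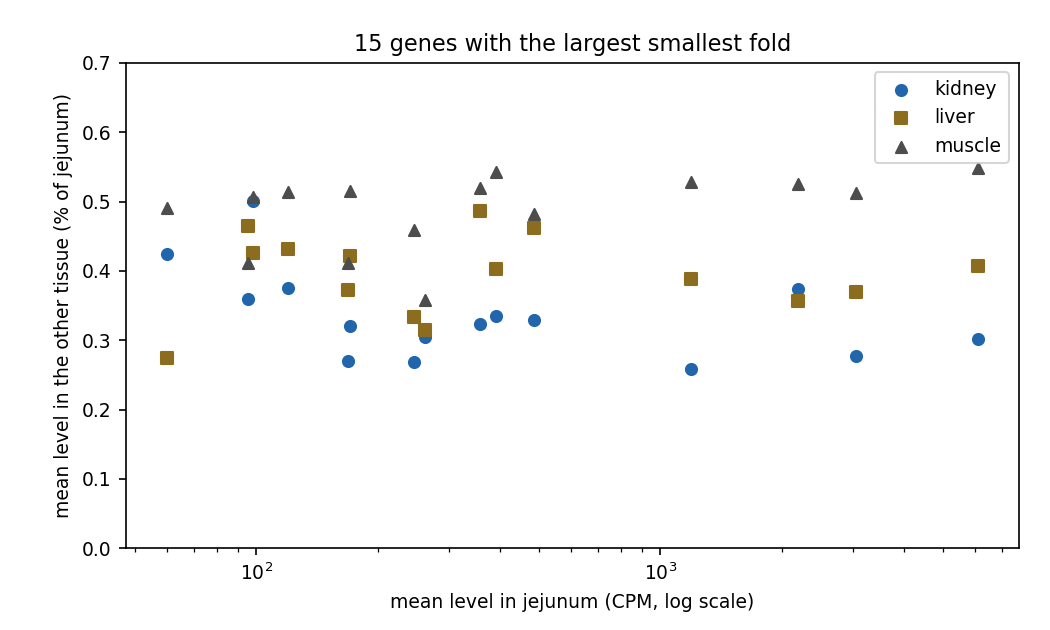
Mean level in kidney, liver and muscle as a percentage of the jejunum mean (linear axis) against the jejunum mean in CPM (log axis) for the 15 genes furthest above their nearest tissue. All points lie between 0.259% and 0.548%, over jejunum means from 60.0 to 6106 CPM. The narrow range follows in part from choosing the largest folds.

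Digestion at the brush border was led by carbohydrases and peptidases. All 3 tested carbohydrases, SI, MGAM and MGAM2, were higher in jejunum than in each tissue (TREH was too low to be tested, and LCT and ALPI had no counted symbol). As 2 of the 3 were tested only because of their level in jejunum, this count is a description and is not set against the background. MGAM, maltase-glucoamylase, which splits starch oligomers, stood at 777, 1716 and 3761 CPM in jejunum, against 4.28, 13.5 and 27.5 CPM in kidney, 78.7, 343 and 635 CPM in liver and 6.89, 13 and 34.4 CPM in muscle. Its jejunum libraries lay above all others, but liver was far above kidney and muscle, and the log2 fold change was 2.47 against liver beside 7.10 against kidney. MGAM2, a related gene whose reads may be shared with MGAM, stood at 6.09, 13.6 and 24.3 CPM in jejunum, against at most 1.06 CPM in a library of another tissue.

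Of 10 tested brush border peptidases, 7 were higher in jejunum than in each tissue and 0 lower. Among the 9 that passed the filter without jejunum, 6 were higher. MME, neprilysin, stood at 405, 576 and 1259 CPM in jejunum, against 372, 500 and 860 CPM in kidney, 3.08, 7.79 and 11.5 CPM in liver and 12.7, 18.3 and 28.7 CPM in muscle. Jejunum and kidney overlapped, the log2 fold change between them was 0.28 (adjusted p = 0.0216), and the call was lost under 7 of the settings tried, library totals alone and lane 7 alone among them. ENPEP, aminopeptidase A, also differed little from kidney (log2 fold change 0.57, adjusted p = 4.52e-05), and lost its call with library totals alone and in lane 7. MEP1B, the beta subunit of meprin, was higher than kidney by 2.39 and than muscle by 6.68 on the log2 scale. TMPRSS15, enteropeptidase, the activator of trypsinogen, stood at 3.04, 10.7 and 33.3 CPM in jejunum, against at most 1.3 CPM in any other library. DPP4, a dipeptidyl peptidase, was not among the genes called, at a median of 193 CPM in jejunum, 182 CPM in kidney, 317 CPM in liver and 9.18 CPM in muscle. DPEP1 and XPNPEP2 were not called either.

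Genes of the microvillus itself followed, with 11 of 15 tested members higher in jejunum than in each tissue and 0 lower. Without members tested only through jejunum, 10 of 13 were higher. MYO1A stood at 713, 1190 and 1722 CPM in jejunum, against 0.421, 2.66 and 9.18 CPM in kidney. PLS1, an actin-bundling plastin, stood at 581, 901 and 1598 CPM in jejunum, against 48.6, 80.5 and 170 CPM in kidney, and VIL1, villin, at 25.7, 52.6 and 78.3 CPM in jejunum, against 1.4, 3.17 and 6.08 CPM in kidney. MYO7B, CDHR2 and CDHR5 belong to the complex that links the tips of neighbouring microvilli. They were higher than kidney by 3.10, 2.35 and 1.85 on the log2 scale and higher than liver by 7.96, 7.13 and 3.78. ACTR3, a subunit of the actin-nucleating Arp2/3 complex, differed by 1.46 from kidney and from liver and by 1.96 from muscle. PDZK1, a scaffold that anchors transporters in brush borders, stood at 595, 1668 and 2938 CPM in jejunum, against 514, 1291 and 1749 CPM in kidney (log2 fold change 0.39, adjusted p = 0.00499), a call lost under 4 settings, lane 7 alone among them. EZR, ezrin, went the other way against kidney, at a median of 73.6 CPM in jejunum and 247 CPM in kidney. ESPN, TMIGD1 and EPS8 were not called.

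**Figure D3:**
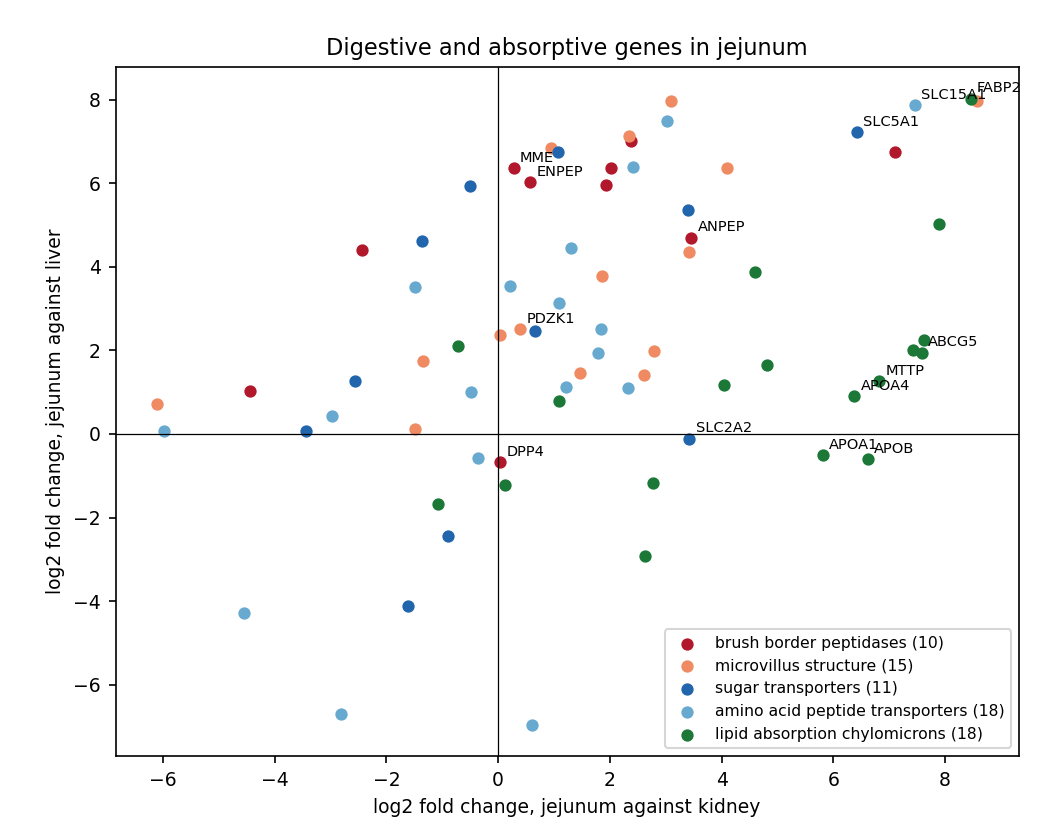
Log2 fold change of jejunum against liver (vertical) and against kidney (horizontal) for the tested members of 5 lists, 1 point per gene. MME lies at 0.28 against kidney and 6.35 against liver, and APOB at 6.62 against kidney and -0.59 against liver. The median of the tested peptidases is 1.25 against kidney and 5.99 against liver, and that of the lipid genes 5.32 against kidney and 1.21 against liver.

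Sugar transporters were mixed. Of 11 tested, 4 were higher in jejunum than in each tissue (SLC5A1, SLC2A5, SLC5A4 and SLC5A9) and 2 lower (SLC2A4 and SLC2A10). SLC2A5, the fructose transporter GLUT5, stood at 12.6, 63.3 and 147 CPM in jejunum, against 3.05, 31.2 and 53.8 CPM in kidney, 0, 0.627 and 2.01 CPM in liver and 0.377, 2.75 and 6.67 CPM in muscle. It overlapped with kidney (log2 fold change 1.08, adjusted p = 2.79e-06), and its call was lost in the lane 7 libraries alone. SLC5A4, a relative of SGLT1, stood at 21.9, 47 and 122 CPM in jejunum, above all other libraries. SLC5A9, a mannose and glucose transporter, was higher than kidney by 0.66 (adjusted p = 0.022), and this call was lost under 8 settings. SLC2A2, GLUT2, through which hexoses leave the enterocyte, was not called: it stood at 149, 259 and 450 CPM in jejunum, against 14.5, 23.5 and 42.1 CPM in kidney, 125, 289 and 453 CPM in liver and 1.45, 4.38 and 18 CPM in muscle (log2 fold change -0.11 against liver, adjusted p = 0.467). SLC2A4, the insulin-responsive transporter of muscle, was at a median of 1.04 CPM in jejunum and 149 CPM in muscle. SLC2A7, GLUT7, belonged to the 15 genes above, at 17.9, 147 and 498 CPM in jejunum.

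Among 18 tested amino acid and peptide transporters, 8 were higher in jejunum than in each tissue and 2 lower. SLC15A1, the di- and tripeptide transporter PepT1, stood at 284, 760 and 2446 CPM in jejunum, against 1.86, 4.75 and 10.5 CPM in kidney, 0.846, 3.76 and 6.96 CPM in liver and 2.27, 5.51 and 10.4 CPM in muscle (log2 fold change 7.56 ± 0.13, adjusted p = 2.75e-72). SLC6A19, the main apical carrier of neutral amino acids, stood at 94, 166 and 474 CPM in jejunum, against 4.34, 16.4 and 126 CPM in kidney, and SLC7A9, the light chain of the cystine and dibasic amino acid exchanger, at 41.7, 203 and 564 CPM in jejunum, against 25.9, 42.3 and 62 CPM in kidney. Both carriers are known from the kidney too, and there the highest libraries overlapped with the lowest jejunum libraries. SLC6A20, a proline carrier, was nearest to liver (log2 fold change 1.09). SLC43A2, a carrier of large neutral amino acids, was higher by 1.22 than kidney, 1.13 than liver and 1.06 than muscle. SLC38A3 and SLC38A2, which carry glutamine, were lower: SLC38A3 had a median of 0.692 CPM in jejunum, against 4.14 CPM in kidney, 69.2 CPM in liver and 11.7 CPM in muscle. SLC38A2 differed by -0.36 from kidney (adjusted p = 0.0347), and this call was lost under 7 settings.

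Of 18 tested lipid uptake and chylomicron genes, 11 were higher in jejunum than in each tissue and PLIN2 was lower. Among the 17 that passed the filter without jejunum, 10 were higher. NPC1L1, the intestinal cholesterol uptake protein, stood at 171, 306 and 566 CPM in jejunum, against 0.421, 1.24 and 3.67 CPM in kidney, 3.94, 10.2 and 24.2 CPM in liver and 0.345, 1.86 and 4.49 CPM in muscle. SOAT2, which esterifies cholesterol, was at 104, 152 and 396 CPM in jejunum, against 20.3, 40.9 and 81.8 CPM in liver, and MTTP, which loads lipid onto apolipoprotein B, at 96.7, 171 and 295 CPM in jejunum, against 40.3, 73.8 and 111 CPM in liver. ABCG5, a subunit of the sterol exporter, was higher than liver by 1.95 on the log2 scale. APOB and APOA1 were below liver. APOB, the structural protein of chylomicrons and VLDL, stood at 944, 2110 and 8485 CPM in jejunum, against 14.8, 22.2 and 67.5 CPM in kidney, 2079, 3821 and 4940 CPM in liver and 31.5, 44.7 and 202 CPM in muscle, and differed by -0.59 from liver on the log2 scale (adjusted p = 0.00153). APOA1 differed from liver by -0.50 (adjusted p = 0.0206), with overlapping libraries. The lipid droplet coat proteins parted: PLIN3 stood at 312, 1171 and 2640 CPM in jejunum, against 42.9, 62.9 and 204 CPM in liver, whereas PLIN2 stood at 6.38, 14.5 and 44 CPM in jejunum, against 12, 29.1 and 80.2 CPM in kidney, 10.8, 47.5 and 147 CPM in liver and 21.3, 105 and 159 CPM in muscle.

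For vitamins, minerals and ions, 14 of 22 tested genes were higher in jejunum than in each tissue and 0 lower. Tested only because of their level in jejunum were 5 of the 22, with 4 of these called. Without them, 10 of 17 were higher. S100G, calbindin-D9k, which ferries calcium across the cell, stood at 1508, 4681 and 9153 CPM in jejunum, against at most 57.7 CPM in another library (log2 fold change 7.65 ± 0.12, adjusted p = 3.79e-75). The calcium pump ATP2B1 was higher than muscle by 1.34 and than liver by 2.84, and VDR, the vitamin D receptor, stood at 44.8, 117 and 236 CPM in jejunum, against 12.1, 21.2 and 78 CPM in kidney and at most 2.25 CPM in liver or muscle. VDR overlapped with kidney and ATP2B1 with no tissue. For vitamin A, RBP2, the retinol carrier of enterocytes, stood at 803, 2087 and 3754 CPM in jejunum, against at most 32.2 CPM elsewhere. LRAT, which esterifies retinol, was higher than liver by 2.94, and BCO1, which cleaves beta-carotene, stood at 247, 760 and 3247 CPM in jejunum, against 130, 358 and 1081 CPM in liver.

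Iron genes were not uniform. CYBRD1, the duodenal ferric reductase, stood at 125, 254 and 381 CPM in jejunum, above all other libraries, and HEPH, the ferroxidase of enterocytes, at 29.9, 56.2 and 86.9 CPM in jejunum, against at most 4.52 CPM elsewhere. SLC11A2, the iron importer DMT1, did not pass against liver (log2 fold change 0.25, adjusted p = 0.0556). SLC40A1, the iron exporter ferroportin, had a median of 24 CPM in jejunum, against 31.6 CPM in kidney, 379 CPM in liver and 20.4 CPM in muscle, and differed by -4.13 from liver on the log2 scale (adjusted p = 8.16e-36). CFTR, the chloride channel of crypts, stood at 35, 68.3 and 114 CPM in jejunum, above all others. GUCA2B, uroguanylin, stood at 11.4, 27.5 and 148 CPM in jejunum, against at most 1.06 CPM elsewhere. Its receptor GUCY2C was nearest to muscle, at 52.7 ± 20.7 CPM in jejunum and 40.9 ± 18.5 CPM in muscle (mean ± SD, n = 19 and 24), and its call (log2 fold change 0.38, adjusted p = 0.025) was lost under 7 settings, DESeq2 among them.

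All 9 tested goblet cell genes were higher in jejunum than in each tissue. Of these, 7 were tested only because of their level in jejunum, since they did not pass the filter without the jejunum libraries, so this count is a description and is not set against the background. TFF3, a trefoil peptide of mucus, stood at 25.5, 138 and 222 CPM in jejunum, CLCA1 at 19.1, 53.7 and 99.5 CPM, the membrane mucin MUC13 at 16.2, 55.7 and 160 CPM, and the goblet cell transcription factor SPDEF at 4.88, 13.4 and 41.2 CPM. None of these overlapped with another tissue, where the highest libraries were at 2.65, 2.5, 8.08 and 1.15 CPM. MUC2, the main secreted mucin, ATOH1 and GALNT12 were too low to be tested, and 6 further list members had no counted symbol. Of 9 tested enteroendocrine genes, 8 were higher than in each tissue, and the same 8 were tested only because of their level in jejunum. CHGB, SCG2, TAC1, MLN, GHRL, SCT, NEUROG3 and PAX4 were too low to be tested, and PYY, TPH1 and INSM1 had no counted symbol. Besides GIP the higher genes were the hormone genes GCG (5.31, 16.9 and 43.4 CPM in jejunum), NTS (5.32, 20.6 and 67.1 CPM), SST (3.32, 10.8 and 19.8 CPM) and CCK (0.759, 13.1 and 19.4 CPM), the granule protein CHGA, the prohormone convertase PCSK1 and the transcription factor NEUROD1 (2.95, 8.93 and 26.6 CPM). The call of CCK was lost in the lane 7 libraries alone and in the xylose libraries alone. In the other tissues the median library had 0 CPM of SST and NEUROD1. Of 6 tested antimicrobial genes, OLFM4, LYZ, GPX2 and NOS2 were higher, and 2 of these 4 were tested only because of their level in jejunum. LYZ, lysozyme, varied widely, at 80.5, 328 and 1303 CPM in jejunum, yet lay above every other library (at most 40.1 CPM).

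Of 16 tested cell division genes, 13 were higher in jejunum than in each tissue and 0 lower, with a median log2 fold change of 2.12. Tested only because of their level in jejunum were 3 of the 16, all called higher. Without them, 10 of 13 were higher. TOP2A, the topoisomerase of dividing cells, stood at 49.1, 116 and 200 CPM in jejunum, against 5.3, 10.7 and 17.2 CPM in kidney, 4.22, 11.1 and 21.7 CPM in liver and 10.2, 14.5 and 22.7 CPM in muscle. MCM6, a helicase subunit of DNA replication, stood at 36.2, 95.5 and 187 CPM in jejunum, against at most 27.7 CPM elsewhere. Stem cell genes did not form such a group: of 9 tested, OLFM4, CDCA7 and RNF43 were higher, ZNRF3 and PROM1 were lower, and SOX9, AXIN2, SMOC2 and LGR5 were neither. PROM1 lost its call with library totals alone, in lane 7 alone and in the xylose libraries alone. The paired ubiquitin ligases RNF43 and ZNRF3, which remove Wnt receptors, thus stood on opposite sides. RNF43 was at 23.3, 39.1 and 61.8 CPM in jejunum, against 12.6, 18.2 and 52.1 CPM in liver, its nearest tissue. ZNRF3 was at 0.985, 3.65 and 7.02 CPM in jejunum, against 4.01, 33.3 and 62.4 CPM in kidney, 2.88, 40.5 and 82.1 CPM in liver and 6.74, 27.3 and 53.6 CPM in muscle.

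**Figure D4:**
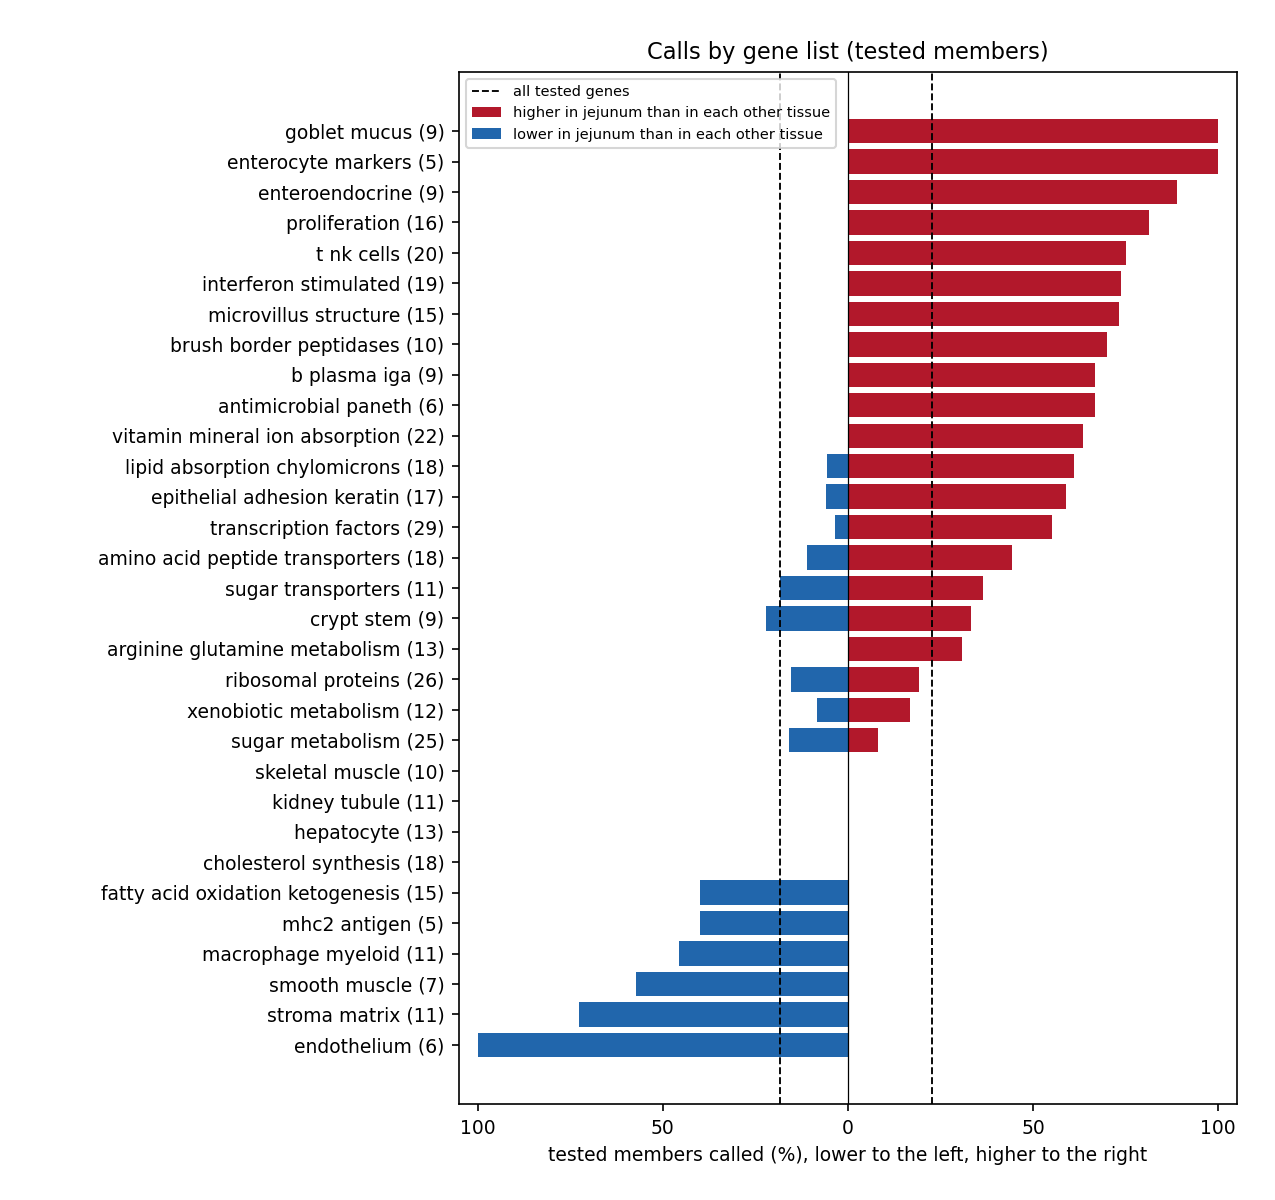
Share of tested members called higher (right) or lower (left) in jejunum than in each other tissue, for lists with 5 or more tested members (number tested in brackets). Dashed lines mark the shares among all tested genes, 22.6% higher and 18.4% lower. Bars and dashed lines include genes tested only through their level in jejunum. Goblet cell genes are all on the right, with 7 of the 9 tested only through their level in jejunum, and endothelial genes all on the left.

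Lymphocyte genes were higher while myeloid genes were not. Of 20 tested T and NK cell gene identifiers (GZMA has 2), 15 were higher in jejunum than in each tissue and 0 lower. Of the 20, 9 were tested only because of their level in jejunum, and 7 of these were among the 15. ITGAE, the integrin that holds lymphocytes in epithelium, stood at 72.9, 132 and 257 CPM in jejunum, against 3.47, 10.5 and 17.7 CPM in kidney, 4.59, 11.6 and 21.6 CPM in liver and 5.05, 16.7 and 28.3 CPM in muscle. CD3D, of the T cell receptor complex, stood at 15, 34.8 and 53.7 CPM in jejunum, against at most 7.05 CPM elsewhere, and the protease gene GZMA (ENSSSCG00000016902), which may share reads with its relatives, at 47.8, 139 and 344 CPM against at most 8.24 CPM. CD8A was higher than in each tissue, with a log2 fold change of 2.11 against liver, and CD4 was among 5 not called. The chemokine CCL25 and its receptor CCR9, which draw lymphocytes to the small intestine, stood at 219, 353 and 607 CPM and at 42.8, 97.6 and 132 CPM in jejunum, against at most 7.86 CPM of CCL25 and 3.61 CPM of CCR9 in any other library. PIGR, which carries immunoglobulin A through the epithelium, stood at 1815, 3853 and 8122 CPM in jejunum, against 66.3, 163 and 524 CPM in kidney. Plasma cell genes were less distinct. JCHAIN, the joining chain of immunoglobulin A, stood at 3.8, 25.5 and 102 CPM in jejunum, against 1.95, 9.82 and 68.1 CPM in kidney, 3.17, 10.7 and 26.8 CPM in liver and 0, 3.54 and 7.93 CPM in muscle, and its call was lost in lane 7 alone and in the control libraries alone. TNFRSF17 and XBP1 were not called.

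Of 11 tested macrophage genes, 0 were higher in jejunum than in each tissue and 5 lower (VSIG4, C1QC, C1QB, AIF1 and TYROBP), or 3 with library totals alone, in lane 7 alone and without the 6 jejunum libraries that had over 10% of counts from mitochondrially encoded genes, and 2 in the xylose libraries alone. C1QC, a complement subunit, stood at 4.47, 13.4 and 39.1 CPM in jejunum, against 9.98, 20.9 and 38.1 CPM in kidney, 56.4, 226 and 421 CPM in liver and 21.7, 48.4 and 89.8 CPM in muscle. Of 5 tested MHC class II genes, CIITA, their master regulator, and SLA-DQB1 were lower, and SLA-DMA, SLA-DMB and CD74 were neither. The class II chains SLA-DRA, SLA-DRB1 and SLA-DQA1 had no counted symbol, so these counts do not describe them. SLA-DQB1 lost its call with library totals alone and in lane 8 alone. CIITA stood at 15.9, 27.8 and 36 CPM in jejunum, against 33, 56.4 and 79.4 CPM in kidney, 49, 72.9 and 113 CPM in liver and 79.7, 200 and 239 CPM in muscle. Interferon-stimulated genes were higher in 14 of 19 tested members, and in 10 and 12 in lanes 7 and 8 alone. Without members tested only through jejunum, 12 of 17 were higher. The guanylate-binding protein GBP1 stood at 587, 1052 and 1855 CPM in jejunum, against 9.59, 16.8 and 55.6 CPM in kidney, 21.7, 38.8 and 91 CPM in liver and 15.4, 32.8 and 205 CPM in muscle. ISG15 overlapped with the other tissues, at 10.5, 40.7 and 252 CPM in jejunum and 2.27, 11.7 and 116 CPM in muscle.

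Epithelial adhesion and keratin genes had 10 of 17 tested members higher and CLDN1 lower, a call lost with library totals alone. Without members tested only through jejunum, 8 of 15 were higher. KRT20, the keratin of villus epithelium, stood at 2273, 5456 and 10096 CPM in jejunum, against at most 54.8 CPM elsewhere. CDH17, the intestinal cadherin, stood at 112, 187 and 287 CPM in jejunum, against at most 3.37 CPM. EPCAM overlapped with kidney (151, 314 and 615 CPM in jejunum, against 40, 76.1 and 207 CPM in kidney). The claudins differed among themselves. CLDN3 stood at 51.6, 88.1 and 139 CPM in jejunum, against 16, 43 and 85.7 CPM in liver, whereas CLDN1 stood at 2.08, 7.11 and 19.2 CPM in jejunum, against 177, 491 and 764 CPM in liver.

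Of 29 tested transcription factors from a list that spans the 4 tissues, 16 were higher in jejunum than in each tissue and PROX1 was lower, a call lost under 7 settings. Among the 26 that passed the filter without jejunum, 13 were higher. CDX2, the homeobox factor that sets intestinal identity, stood at 55.6, 85.9 and 143 CPM in jejunum, against at most 2.27 CPM elsewhere (log2 fold change 7.66 ± 0.15, adjusted p = 2.31e-67). ISX, an intestinal homeobox factor that represses BCO1 and SCARB1 in mice, stood at 15.9, 37.6 and 79.6 CPM in jejunum, against at most 1.01 CPM. Both SCARB1 and BCO1 were higher in jejunum than in each tissue. Related factors were shared differently. HNF4A stood at a median of 351 CPM in jejunum, 312 CPM in kidney, 391 CPM in liver and 8.73 CPM in muscle, and passed neither against kidney (adjusted p = 0.595) nor against liver (0.267), whereas its paralog HNF4G stood at 14.4, 39.3 and 174 CPM in jejunum, against 0.434, 4.35 and 28.8 CPM in kidney and 0, 1.68 and 7.69 CPM in liver. GATA4 stood at 17.9, 39.8 and 71.8 CPM in jejunum, against 12.8, 22.2 and 39.9 CPM in liver, and GATA6 at 5.98, 33.2 and 70 CPM in jejunum, against 1.44, 4.77 and 9.44 CPM in liver. NR1I2, the xenobiotic receptor PXR, stood at 283, 383 and 587 CPM in jejunum, above every liver library (89.7, 156 and 221 CPM). Of 12 tested genes of xenobiotic metabolism, the exporter ABCC2 and the sulfotransferase SULT1B1 were higher, FMO1 was lower and 9 were neither. Only 13 of the 33 list members had a counted symbol. The CYP3A, CYP2B, CYP2C, UGT and GSTA members, ABCB1 and ABCG2 had none, so these counts do not describe them.

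The small intestine is known to make citrulline from glutamine and proline, and part of that route was higher. Of 13 tested genes of arginine and glutamine metabolism, 4 were higher in jejunum than in each tissue and 0 lower, with ALDH18A1, OAT and CPS1 among the 4. ALDH18A1, pyrroline-5-carboxylate synthase, stood at 75.7, 181 and 305 CPM in jejunum, against 9.99, 24.9 and 39.6 CPM in kidney, 2.01, 11 and 27.1 CPM in liver and 0.458, 3.93 and 10.2 CPM in muscle. OAT, ornithine aminotransferase, was at 197, 1359 and 5365 CPM in jejunum, against 11, 142 and 241 CPM in liver. CPS1, which makes carbamoyl phosphate, stood at 9.27, 37.3 and 119 CPM in jejunum, against 0, 0.233 and 1.22 CPM in kidney, 8.96, 23.1 and 44.4 CPM in liver and 0, 0 and 3.93 CPM in muscle. Its call against liver (log2 fold change 0.88, adjusted p = 0.000418) was lost in lane 8 alone, in the xylose libraries alone and without the libraries over 10% mitochondrial counts. OTC, which makes citrulline, was below liver at a median of 96.8 CPM in jejunum and 301 CPM in liver, and above kidney and muscle by 5.64 and 4.63. ARG1, the arginase of the urea cycle, had a median of 2.44 CPM in jejunum and 256 CPM in liver.

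Sugar metabolism genes were mostly not called: of 25 tested, 2 were higher, 4 lower and 19 neither, beside 22.6% and 18.4% of all genes. Fructokinase, KHK, had a median of 216 CPM in jejunum and 221 CPM in liver. For xylose, XYLB, xylulose kinase, had a median of 60.4 CPM in jejunum, 62.5 CPM in kidney, 76.2 CPM in liver and 2.24 CPM in muscle and passed against muscle alone, and SORD, sorbitol dehydrogenase, stood at 134, 334 and 561 CPM in jejunum, against 1352, 1864 and 2246 CPM in liver. The lower genes were LDHB, AKR1B1, TALDO1 and RPIA, and the calls of TALDO1 and RPIA were lost with library totals alone. AKR1B1, an aldose reductase, stood at 0.338, 2.44 and 6.69 CPM in jejunum, against 2.45, 8.88 and 33.9 CPM in kidney, 1.95, 4.54 and 24.4 CPM in liver and 19.1, 64.1 and 92.8 CPM in muscle. The gluconeogenic genes FBP1 and PCK1 lay below kidney and liver, by -3.11 and -2.56 against kidney and -3.00 and -3.18 against liver, and above muscle by 2.38 and 2.84.

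Fatty acid oxidation genes were lower in 6 of 15 tested members and higher in 0, but with library totals alone 0 of the 15 were lower than in each tissue, 3 were without the libraries over 10% mitochondrial counts, and 2 were in lane 8 alone. HADHB, a subunit of the mitochondrial trifunctional protein, stood at 34.9, 77.2 and 167 CPM in jejunum, against 23.4, 143 and 268 CPM in kidney, 59.9, 156 and 235 CPM in liver and 26.9, 139 and 191 CPM in muscle, with wide overlap. None of 18 tested cholesterol synthesis genes were higher or lower than in each tissue, although 11 were higher and 2 lower than the mean of the others. With library totals alone 4 were higher than in each. CYP51A1, a demethylase of the pathway, had a median of 243 CPM in jejunum, 52.8 CPM in kidney, 167 CPM in liver and 45.2 CPM in muscle. Of 26 tested ribosomal protein genes, 5 were higher and 4 lower than in each tissue, near the shares among all genes, and 8 and 2 with library totals alone. RPS12 stood at 2255, 4842 and 5967 CPM in jejunum, against 783, 1545 and 2214 CPM in kidney, and RPL11 at 243, 546 and 897 CPM in jejunum, against 378, 966 and 1466 CPM in kidney. Processed copies of ribosomal genes can take reads from them, so the direction of single members is uncertain.

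The genes lower in jejunum than in each tissue were led by vascular, connective tissue and blood genes. The 10 named genes furthest below were BGN, CLEC3B, FERMT2, MGP, GNG11, HBB, ACTA2, TSPAN9, NDUFA4 and KANK2, with means of 3.17 to 14.2 CPM in jejunum and a smallest pairwise fold of 14.1 to 25.5, values that chose them. In 9 of the 10 no jejunum library overlapped with another tissue, and NDUFA4 overlapped with kidney. The choice by fold favours this too, and the share among all tested genes was not counted. BGN, biglycan, a matrix proteoglycan, stood at 1.69, 5.72 and 8.85 CPM in jejunum, against 33.1, 90.5 and 546 CPM in kidney, 85, 156 and 523 CPM in liver and 49.9, 170 and 957 CPM in muscle. ACTA2, smooth muscle actin, stood at 1.56, 3.42 and 5.69 CPM in jejunum, against 25, 61.8 and 133 CPM in kidney, 16.9, 45.4 and 209 CPM in liver and 34.6, 92.4 and 197 CPM in muscle. HBB, beta globin of red blood cells, stood at 5.09, 12.8 and 27.8 CPM in jejunum, against 47.2, 224 and 800 CPM in kidney, 60.7, 471 and 1522 CPM in liver and 56.7, 246 and 380 CPM in muscle.

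The lists for these cells went the same way. They are not a separate check, since they were chosen with earlier results of these data known. ACTA2 is also a member of the smooth muscle list and HBB of the erythrocyte list. All 6 tested endothelial genes were lower in jejunum than in each tissue (5 with library totals alone and in each lane alone), as were 8 of 11 matrix genes, 4 of 7 smooth muscle genes and 3 of 3 erythrocyte genes, counts that held with library totals alone. KDR, the main receptor for vascular endothelial growth factor, stood at 0, 1.52 and 5.32 CPM in jejunum, against 15.6, 26.9 and 47.1 CPM in kidney, 16.3, 49.1 and 85.8 CPM in liver and 2.42, 10.9 and 22.6 CPM in muscle. COL1A1, the main fibrillar collagen chain, stood at 15.6, 28.3 and 46.3 CPM in jejunum, against 47, 168 and 359 CPM in kidney, 73.2, 111 and 337 CPM in liver and 1073, 2079 and 7834 CPM in muscle. Matrix genes took 0.0103% to 0.0278% of the counts of a jejunum library and smooth muscle genes 0.00599% to 0.0193%. Pancreatic acinar genes, which could enter a sample of the upper intestine, took at most 0.000454% of counts and none of the 6 with a counted symbol could be tested. Of 2 tested enteric nerve genes, neither was called.

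Among the jejunum libraries themselves, the spread differed by gene. The coefficient of variation over 19 libraries was 21.8% for RNF43, 23.3% for NR1I2 and 28.7% for CCL25, against 77.2% for LYZ, 84.4% for OAT and 130% for NOS2. The 5 genes whose levels followed the mean of the markers most closely, on a log2(CPM + 1) scale over 19 libraries and out of 2267 candidates, were CPD (Pearson correlation 0.904), ITM2B (0.903), TFF3 (0.899), ITM2C (0.886) and MTMR4 (0.885). These libraries share depth and lane, so the correlations are a description. ITM2C, a membrane protein, was itself higher in jejunum (195, 583 and 979 CPM, against 32.7, 148 and 198 CPM in kidney), whereas CPD, carboxypeptidase D, was not called.

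Part of the spread followed the sequencing lane, which in jejunum coincides with the plate row, so lane and row cannot be told apart. Of 8867 genes tested within jejunum, 220 (2.48%) were higher and 624 (7.04%) lower in lane 8 than in lane 7. Mitochondrially encoded genes took 3.77% to 8.65% of counts (median 7.03%) in the 11 lane 8 libraries, against 3.9% to 28.2% (median 12.8%) in the 8 lane 7 libraries, of which 6 were above 10%. The enterocyte markers together took a median of 1.41% of counts in lane 8 and 0.911% in lane 7, though none of the 5 passed by itself (for SI the difference was 0.84 ± 0.35 on the log2 scale, adjusted p = 0.114). Of 2535 genes higher in jejunum than in each tissue that could be tested for lane, 77 were higher and 248 lower in lane 8, or 12.8%. The corresponding share was 4.05% of 1236 genes lower than in each tissue and 9.2% of 5044 others. The lane difference in jejunum differed from that of the other tissues for 1022 genes, with 3.62% of 11511 higher and 5.26% lower. RBP2 stood at 1648 to 3754 CPM in lane 8, against 803 to 2658 CPM in lane 7 (log2 fold change 0.79 ± 0.22, adjusted p = 0.0258). SLC2A2 stood at 196 to 450 CPM in lane 8, against 149 to 310 CPM in lane 7 (0.64 ± 0.18, adjusted p = 0.0299). CPS1 went the other way, at 9.27 to 61 CPM in lane 8, against 21.2 to 119 CPM in lane 7 (-1.06 ± 0.31, adjusted p = 0.0322). In these 3 genes the lanes overlapped. What part the mitochondrial share has in these differences was not tested.

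**Figure D5:**
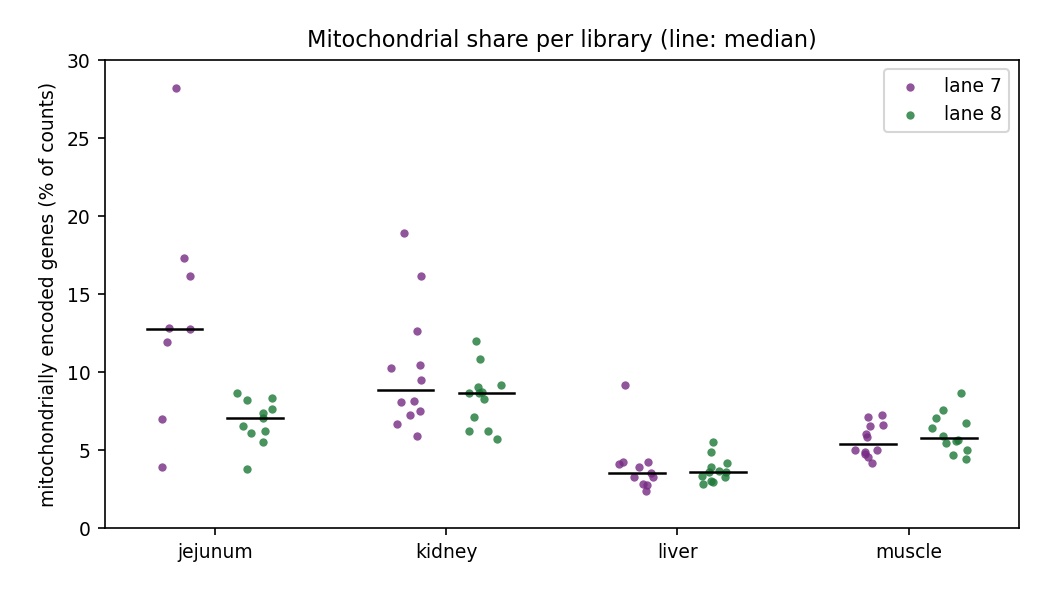
Share of counts from mitochondrially encoded genes in each library by tissue and lane, with a line at each median. In jejunum, lane 7 libraries run from 3.9% to 28.2% and lane 8 libraries from 3.77% to 8.65%. In kidney, liver and muscle the lane medians lie close together. Kidney lane 7 libraries still run from 5.93% to 18.9%, with 5 of 12 over 10%. Those of kidney lane 8 run from 5.68% to 12.0%, with 2 of 12 over 10%.

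Diet did not separate the jejunum libraries by this test. With diets taken by title, edgeR called 0 of 8867 genes in either direction between the 10 xylose and 9 control libraries, with 404 at an unadjusted p under 0.05 and a smallest adjusted p of 0.954, and DESeq2 also called 0. A test of whether the difference between jejunum and the other tissues depended on diet called 0 of 11511 genes (514 at an unadjusted p under 0.05, smallest adjusted p = 0.988). SI averaged 468 ± 331 CPM on xylose and 507 ± 303 CPM on control (SD), and SLC5A1 1756 ± 798 CPM on xylose and 1491 ± 602 CPM on control. XYLB averaged 55.7 ± 26.0 CPM on xylose and 82.2 ± 24.8 CPM on control (log2 fold change -0.59 ± 0.22, adjusted p = 0.954). In the control libraries alone 2114 genes were higher and 1886 lower in jejunum than in each tissue, and in the xylose libraries alone 2057 and 1652.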

How the data were processed

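The 96 files held raw read counts per Ensembl pig gene, made by the authors, with STAR and featureCounts named in the submitters' processing notes and HTSeq in the file names. No source used here gives the versions, genome build, annotation or strand setting, so reads of overlapping genes, close paralogs and antisense partners may not be separable. Of 25880 gene identifiers, 14857 had a symbol. Each deposited count file was matched to a sample by the title in its name, which set tissue and diet, and the lane was read from the same name. The members and gene lists were chosen with earlier results of these data known.

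Counts were analysed with edgeR 4.0.16 (R 4.3.3): genes passing its expression filter by tissue, TMM scaling, and quasi-likelihood tests with tissue and lane as terms, with Benjamini-Hochberg adjustment over 11511 genes and a threshold of 0.05. Contrasts were jejunum against the mean of the other 3 tissues and against each one. SE is the absolute log2 fold change divided by the square root of F. Depth was 1044588 to 6942566 counts per library used, which limits the precision of low genes. The 6 libraries left out held 13418 to 915907 counts. No pair of jejunum libraries had identical counts.

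Named genes were the 5 markers, the 15 and 10 genes furthest above and below every other tissue among those at 50 CPM or more, up to 4 called members of each list in either direction by mean CPM, and 5 genes that followed the markers. Other genes named in the text were chosen after their values were seen. The fit was run on simulated data in which far fewer genes were changed in jejunum than differ here. That run therefore does not test the scaling or the stricter call for these data. Alternatives, run with DESeq2 1.42.0, limma 3.58.1 and edgeR, varied scaling, filter, test, lane, diet, depth minimum, libraries and plate position. The leaving out of libraries over 10% mitochondrial counts was chosen after seeing the data. Results for some genes are not reported here.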

Additional observations from a re-analysis of the deposited data

Results flagged for a closer look

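In lane 7, 1 jejunum library stood apart in SI, at 912 CPM with the next at 371 CPM (n = 8). In the xylose jejunum libraries, 1 stood apart in mitochondrial share, at 28.2% with the next at 12.8% (n = 10). Of 18 such tests, chance flags about 1 in 20.

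The lane 8 minus lane 7 difference in jejunum differed from the mean of that in the other tissues for 1022 of 11511 genes by the edgeR interaction test. Among named genes the difference of differences on the log2 scale was 1.39 for JCHAIN (adjusted p = 0.0486), 1.07 for SLA-DQB1 (0.0231), 0.84 for ITM2B (0.0445), 0.83 for ITM2C (0.0439), 0.79 for RPSA (0.00544), 0.76 for PDZK1 (0.0104), 0.65 for DSP (0.0313) and 0.64 for MTMR4 (0.0146). It was -0.84 for KANK2 (adjusted p = 0.0449) and -1.67 for CPS1 (0.015). CPS1 was lower in lane 8 by -1.06 in jejunum and higher by 0.63 in the other tissues.

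The 5 jejunum libraries under 1000000 counts, used in no comparison above, held 0.181% to 0.779% of counts in the enterocyte markers, above the highest library of another tissue at 0.112%. They also held 0.413% to 1.32% in hepatocyte markers and 0.712% to 2.33% in skeletal muscle markers. The jejunum libraries used held at most 0.577% and 0.997% of these. Of the 5 libraries, 4 were from lane 7.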

How the results depend on the processing

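Of the alternatives tried, 102 values of the counts of called genes stayed within 1.5 times the reported count and 8 did not. With library totals alone, 1025 genes were lower in jejunum than in each tissue and 616 at least 2-fold lower, in place of 2122 and 1127. With no filter on low counts, 8989 genes were higher than the mean of the other tissues, 5001 higher than each and 3888 at least 2-fold higher, of 21172 tested, and 62.5% of called genes were higher. With the libraries under 1000000 counts kept, lane 8 against lane 7 within jejunum gave 980 genes higher and 1253 lower, and DESeq2 gave 516 higher. For named genes, 3354 log2 fold changes against the mean of the other tissues kept their direction and side of the threshold, 18 lost and 4 gained significance, and 4 changed sign: with library totals alone SORD was at 0.33, CD74 at 0.03 and CPD at 0.31, and without the libraries over 10% mitochondrial counts CPD was at 0.02. The stricter call against each tissue was less stable: of 170 such calls among named genes, 40 were lost under at least 1 alternative. With library totals alone 17 of 51 lower and 6 of 119 higher calls were lost, in the lane 7 libraries alone 8 and 13, in the lane 8 libraries alone 10 and 5, and in the xylose libraries alone 11 and 7. The cause of these changes was not tested. Plate position may mark an animal. With it as a replicate block, 2642 genes were higher and 2147 lower than in each tissue, and 2542 and 2070 of these were called without it. Deviations of jejunum and same-position libraries correlated at -0.204 to 0.596 in kidney, -0.212 to 0.29 in liver and -0.129 to 0.465 in muscle. The medians were 0.136, 0.087 and 0.097, against -0.002, 0.002 and 0.001 for other positions of the same lane. Among positions of that lane, 6 of 19, 5 of 18 and 7 of 19 jejunum libraries correlated best with their own. Libraries at a position also share a diet, and what part diet has in this was not tested. Jejunum's lower depth limits its low genes.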
